A study of Mus musculus with 6 samples.

Results

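The Hedgehog genes described here are Shh, Ptch1, Smo, Gli1, Gli2, Gli3, Hhip, Boc and Gas1, which encode the ligand, its receptors and coreceptors, an antagonist, the signal transducer and the transcription factors of the pathway. They were chosen by name: each of the 9 symbols was looked up in the table of 15095 genes, and each had 1 row. The RNA came from mouse neural progenitor cells (NPCs), derived from the embryonic stem cell line HA36CB1: floating cells were kept for 4 days in medium lacking retinoic acid, and 5 uM retinoic acid was present for the last 4 days. PolyA RNA was sequenced from 3 wild type and 3 Setd2-KO samples, the latter from a knock-out line of the same isogenic background. SETD2 trimethylates histone H3 at lysine K36 over the bodies of transcribed genes. The labels do not say whether the samples of a genotype came from separate differentiations.

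The measure used is the authors' average log2 CPM of a gene (read counts scaled to a common library size), which pools the libraries of both genotypes into a single value. Whether libraries of other experiments also entered this average is not stated. It gives no level for either genotype and no spread between samples, and the depth of the libraries is unknown here. No difference between wild type and Setd2-KO NPCs is given, because the table holds that comparison only as the authors' own test, which was not used. The Setd2 transcript of each sample, which would check the labels, was likewise not analysed here. All levels below are descriptions of the pooled NPCs, without a test, and whether neighbours in an order differ beyond replicate error cannot be said.

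Hedgehog ligands are secreted proteins. Shh released by the notochord and the floor plate patterns the ventral neural tube. Without ligand, Ptch1 keeps Smo inactive. When ligand binds Ptch1, helped by the coreceptors Boc, Cdon and Gas1, Smo acts at the primary cilium and shifts the Gli factors from repressor to activator forms. Gli1, Ptch1 and Hhip are transcribed in response to the pathway, and Ptch1 and Hhip bind the ligand and so restrain it, whereas Gas1, Boc and Cdon are known to be lowered by it.

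Promoter sequence of the members was taken from the RefSeq promoter table (GRCm38.p6), which matched 6 members, namely Gas1, Gli2, Gli3, Hhip, Ptch1 and Smo. The entries for Shh, Gli1 and Boc were missing. Each entry spans 300 bases, and its 250 bases before the annotated start were found at 1 place each in GRCm39. Annotated exons of GENCODE vM39 covered all 250 bases for Gas1, Gli3 and Ptch1, 96 for Gli2, 89 for Smo and 55 for Hhip. The longest stretch free of exons is shown for the other three, since the GLI motif below was sought in these windows. Capitals mark CCACCC or its reverse complement GGGTGG, the core of the GLI consensus, and sequences run 5′ to 3′ on the strand of the gene. The stretches lie at chr8:80784659-80784853 (minus strand) for Hhip, chr1:118981446-118981599 (minus strand) for Gli2 and chr6:29735246-29735406 (plus strand) for Smo, all in GRCm39. The stretches of Hhip and Smo border the annotated gene on its upstream side, and that of Gli2 is intronic in the GENCODE model, whose gene extends to 118982598.
Hhip: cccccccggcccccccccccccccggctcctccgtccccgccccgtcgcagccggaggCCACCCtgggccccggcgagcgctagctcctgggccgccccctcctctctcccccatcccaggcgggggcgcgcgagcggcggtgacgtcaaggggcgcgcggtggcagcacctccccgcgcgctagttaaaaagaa
Gli2: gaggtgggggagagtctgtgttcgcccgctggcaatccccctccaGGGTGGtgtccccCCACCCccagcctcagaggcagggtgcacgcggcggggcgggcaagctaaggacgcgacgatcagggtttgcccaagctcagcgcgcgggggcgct
Smo: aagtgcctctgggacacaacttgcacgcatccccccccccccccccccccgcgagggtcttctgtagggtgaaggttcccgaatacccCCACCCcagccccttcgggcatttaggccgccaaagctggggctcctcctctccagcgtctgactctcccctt

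The full consensus GACCACCCA, searched on both strands, was found in 0 of the 6 member promoters and in 83 of all 32851 promoters of the table (0.253%). The core alone was found in Gli2 (2 matches), Gli3, Hhip and Smo (1 match each), and in 31.5% of all promoters. Gas1 and Ptch1 had no match to the core. As for Gli2, the Ptch1 and Gli3 windows lie inside the gene in the GENCODE model. The Ptch1 window is at 63713550 to 63713799, and its minus-strand gene extends to 63721412. For Gli3 the window is at 15638058 to 15638307, and the plus-strand gene begins at 15637809. All windows were short, and the absence of these letters says nothing about binding of GLI proteins elsewhere. The 250 bases before the RefSeq start of the members were rich in G and C. They ranged from 58.8% in Gas1 to 78.4% in Ptch1, against a median of 52.4% over all promoters.

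Of the 9 Hedgehog genes, the coreceptor Gas1 had the highest level and the ligand Shh the lowest. To compare genes, the average CPM was divided by the length of the canonical transcript in kb (GENCODE vM39). On this scale, Gas1 reached 95.5 CPM per kb and Shh 0.667 CPM per kb, a 143-fold range. The median over all 15066 genes with a length was 6.82 CPM per kb, and 7 members lay above it, 4 of them above the upper quartile of 19.6 CPM per kb. Here and below, all genes are genes with a row. Genes without a row do not count in medians or shares, so these give no distance from genes that are not expressed. Shh and Hhip lay below the median.

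**Figure D1:**
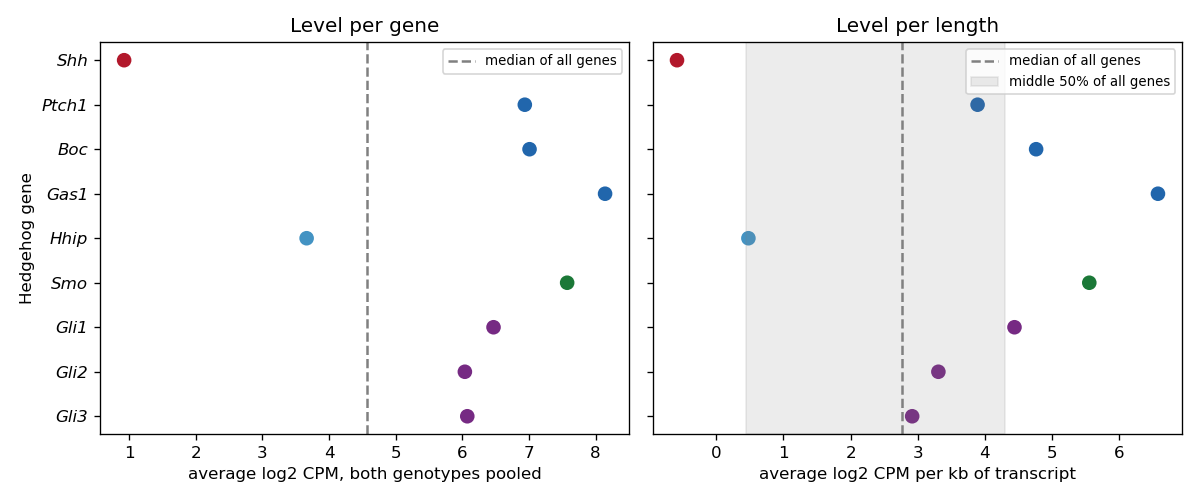
Average log2 CPM of the 9 Hedgehog genes over both genotypes (left x axis) and the same per kb of canonical transcript (right x axis), with genes on the y axis; dashed lines mark the median of all genes and the grey band their middle 50%. Each point is 1 pooled value without an error bar, and colours mark the role of the gene. Shh and Hhip lie to the left of both dashed lines, and Gas1 lies farthest to the right at 6.58 on the log2 scale per kb.

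The ligand Shh lies on chromosome 5 from 28661813 to 28672254 (minus strand, GRCm39) and has 3 exons. Its average log2 CPM was 0.92, that is 1.90 CPM, and 17.5% of all genes had a lower level per kb. Of the other ligands, Ihh, known for its roles in bone and visceral endoderm, had an average log2 CPM of 5.12 and 14.1 CPM per kb, which was 21.1-fold that of Shh. Dhh, the third ligand, had no row in the table used here. In these pooled NPCs, Ihh was thus the ligand transcript with the higher level, on the scale per kb as well as on that of CPM alone (18.4-fold). Among genes of ligand processing and release, Scube3 had 15.8 CPM per kb and Scube1 8.75 CPM per kb, both of which encode secreted proteins that aid ligand release. Hhat, the acyltransferase that adds palmitate to the ligand, had 2.23 CPM per kb. Disp1, which releases the ligand, had no row. Of 11 genes of ligand production and release, 9 had a row, and 4 of these lay above the median of all genes per kb.

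Receptors and coreceptors had higher levels than the ligand. Gas1, a membrane-anchored coreceptor encoded by a single exon on chromosome 13 (60322219 to 60325179, minus strand), had an average log2 CPM of 8.14, and 96.0% of all genes lay below it per kb. Boc, an immunoglobulin and fibronectin domain coreceptor on chromosome 16 (44305290 to 44379432, minus strand), had an average log2 CPM of 7.01 and 27.2 CPM per kb. The related coreceptor Cdon had 6.87 CPM per kb, so that Boc lay 3.95-fold and Gas1 13.9-fold above it. Without division by length, Boc lay 2.47-fold and Gas1 5.42-fold above Cdon. Ptch1, the receptor that holds Smo inactive, lies on chromosome 13 (63656142 to 63721412, minus strand). Its average log2 CPM was 6.94 and its level 14.8 CPM per kb, which was 22.3-fold that of Shh (12.5-fold with the union of all exons as length, 64.6-fold without division by length). The large endocytic receptor Lrp2 had the lowest level of the receptor list with 2.45 CPM per kb, and Gpc5 had no row. Of 7 genes of this list, 6 had a row and 4 of these lay above the median of all genes per kb.

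Hhip, a membrane protein that binds and sequesters Hedgehog ligand, had the second-lowest level of the members. It lies on chromosome 8 (80692480 to 80784658, minus strand) and has the longest canonical transcript of the members, with 9097 bases. Its average log2 CPM was 3.66 and its level 1.39 CPM per kb, which was above that of 25.3% of all genes. Ptch1, the other ligand-binding antagonist among the members, lay 10.7-fold above Hhip per kb (7.05-fold with the union of all exons), and Hhip had the lowest level of the antagonist list. Gpc3, a glypican that binds ligand and restrains signaling, had the highest level of the antagonist list with 167 CPM per kb, ahead of Mgrn1 (28.9 CPM per kb), a ubiquitin ligase that lowers Smo, and of Ptch1.

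Smo, the membrane protein that carries the signal, lies on chromosome 6 (29735407 to 29762532, plus strand). Its average log2 CPM was 7.57 and its level 47.0 CPM per kb, 3.17-fold that of Ptch1, and 90.4% of all genes lay below it. The annotated exons of Smo together cover 8832 bases against 4054 in the canonical transcript, and with this union as length its log2 level per kb was 4.43 in place of 5.55. The fold over Ptch1 was then 2.59, and it was 1.55 without division by length. With canonical lengths, Smo had the highest level of the 22 genes listed for signal transfer at the cilium, followed by the kinase gene Grk2 (38.7 CPM per kb) and the arrestin gene Arrb2 (32.8 CPM per kb), whereas Grk3 had the lowest (1.51 CPM per kb). All 22 genes had a row and 12 lay above the median of all genes per kb.

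The Gli factors lay within a 2.88-fold range. Gli1, an activator that is itself made in response to the signal, lies on chromosome 10 (127165751 to 127177865, minus strand) and had an average log2 CPM of 6.47 and 21.7 CPM per kb. Gli2, the main activator, lies on chromosome 1 (118761858 to 118982598, minus strand) and had an average log2 CPM of 6.04 and 9.90 CPM per kb. Gli3, known mainly as a repressor in the neural tube, lies on chromosome 13 (15637809 to 15904611, plus strand) and had an average log2 CPM of 6.08 and 7.55 CPM per kb. Gli1 thus lay 2.19-fold above Gli2 and 2.88-fold above Gli3 per kb. Without division by length these folds were 1.35 and 1.31. The levels of Gli2 and Gli3 were close (1.31-fold per kb), and their order turned without the division by length, where Gli3 was the higher.

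Genes that act on the Gli factors were high as a group: all 20 of them had a row, and 17 lay above the median of all genes per kb. With canonical lengths, they were led by the casein kinase gene Csnk1a1 (120 CPM per kb). Next came Prkar1a (70.2 CPM per kb) and Prkaca (70.1 CPM per kb), which encode a regulatory and a catalytic subunit of protein kinase A. The level of Csnk1a1 depended on the length used. It lay 5.55-fold above Gli1 with canonical lengths, 2.97-fold with the longest protein-coding transcripts and 1.92-fold with the union of all exons. Without division by length this fold was 4.59. Sufu, which binds Gli proteins and holds them in the cytoplasm, had 23.6 CPM per kb. Dyrk2 had the lowest level with 1.37 CPM per kb.

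**Figure D2:**
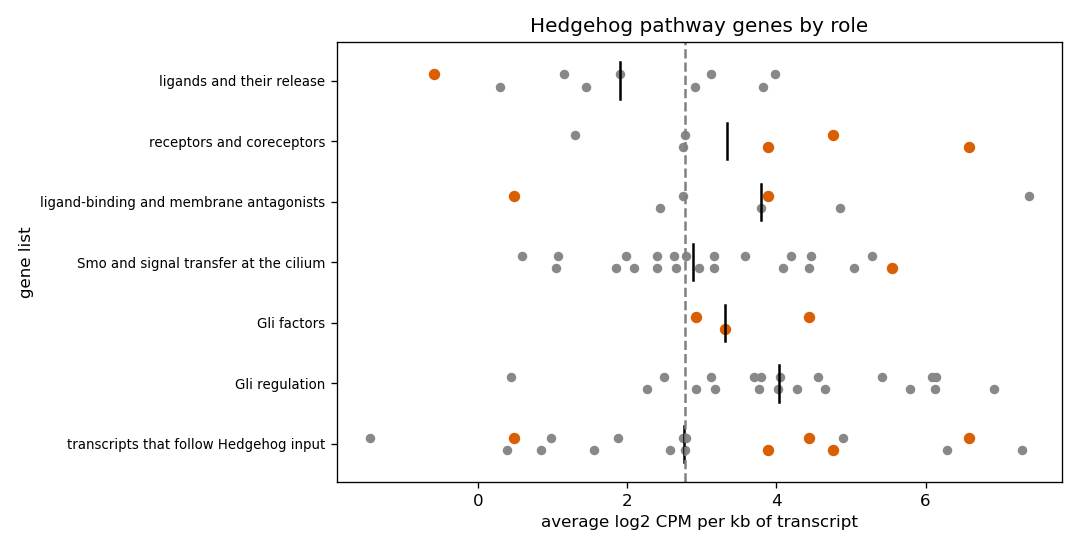
Average log2 CPM per kb of transcript (x axis) of the genes of 7 Hedgehog lists (y axis), from both genotypes pooled; each point is 1 gene, orange points are the 9 members, black bars are list medians and the dashed line is the median of all genes. Points are set apart vertically only to keep them visible, and a gene can be on more than 1 list. Shh is the leftmost point of the ligand list and Gas1 the rightmost of the receptor list.

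The list of transcripts known to respond to Hedgehog input holds genes raised by it and also Gas1, Boc and Cdon, which it lowers, so that its counts have no direction. Of its 19 genes, 18 had a row and 9 lay above the median of all genes per kb. Ccnd2, a D-type cyclin, had the highest level with 156 CPM per kb, followed by Gas1 and by Ccnd1 (78.3 CPM per kb). Nkx2-2, a factor of the ventral progenitors next to the floor plate, had the lowest level with 0.367 CPM per kb, and Foxl1 had no row. The other Nkx genes and Olig2 of this list were higher. Nkx6-2 (6.91 CPM per kb) lay just above the median of all genes. Nkx6-1 (5.95 CPM per kb), Olig2 (2.95 CPM per kb) and Nkx2-9 (1.98 CPM per kb) lay below it. The members of this list ranged from Gas1 to Hhip (1.39 CPM per kb), with Gli1 and Ptch1 at 21.7 and 14.8 CPM per kb. Over all 7 lists, 76 of 80 pathway genes had a row, and 47 of these lay above the median of all genes per kb.

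**Figure D3:**
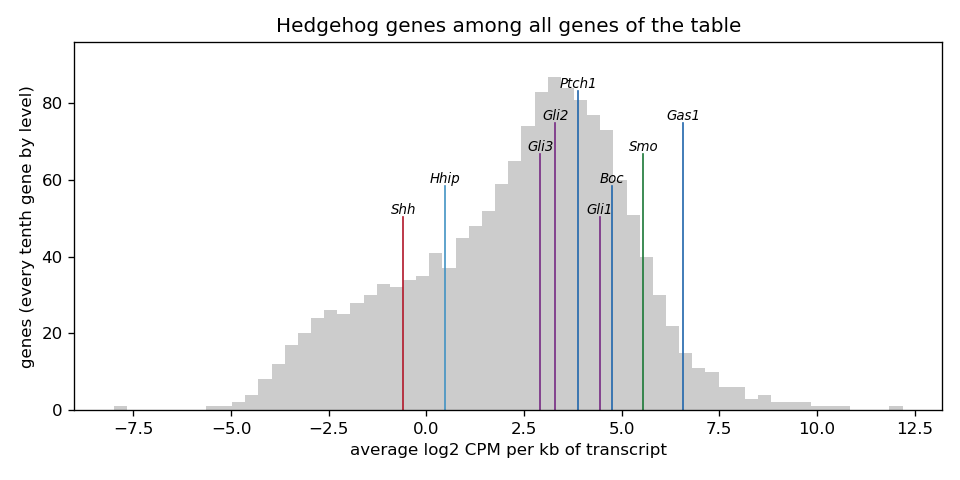
Histogram of the average log2 CPM per kb of transcript (x axis) of all genes of the table, drawn from a regular sample of the genes in order of level, with the number of sampled genes on the y axis; coloured lines mark the 9 Hedgehog genes and their heights carry no meaning. Shh and Hhip lie in the lower flank, and the other 7 lie above the median of 2.77.

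Gas1, Gli3 and Ptch1 lie on chromosome 13, Gas1 and Ptch1 3.33 Mb apart and Gli3 44.4 Mb from Gas1. All 9 members are protein-coding, with canonical transcripts of 2847 bases (Shh) to 9097 bases (Hhip). Gli2 and Gli3 span the largest stretches of the genome, with 221 kb and 267 kb. Antisense or other genes of the reference overlap exons of 8 members, and of these Arhgap9, which shares 103 exon bases with Gli1 on the opposite strand, is the only one with a row (average log2 CPM -0.42). Smo shares 365 exon bases with the pseudogene Gm13717 on its own strand. The libraries were directional, but the sources used here do not say whether strand was used in counting, and the share of reads at these overlaps was not tested.

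The pooled cells carried the markers of neural progenitors. Of 10 such markers, 9 had a row, all of them above the median of all genes per kb, led by Vim (412 CPM per kb), Msi1 (179 CPM per kb) and Sox3 (162 CPM per kb), with Fabp7 the lowest (12.5 CPM per kb); Sox1 had no row. The labels name the cell type as embryonic stem cells, whereas of 8 pluripotency markers 7 had a row and 1 lay above that median, Dppa5a (7.25 CPM per kb), followed by Klf4 (4.33 CPM per kb) and Pou5f1 (3.50 CPM per kb), with Tdgf1 the lowest (0.174 CPM per kb). All 8 markers of early neurons lay above the median, led by Tubb3 (268 CPM per kb), Stmn2 (73.7 CPM per kb) and Nhlh1 (70.4 CPM per kb), with Neurod1 the lowest (18.9 CPM per kb).

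Markers of the floor plate and notochord, the tissues whose Shh patterns the ventral neural tube, were mostly below the median of all genes per kb. Of 10 floor plate markers, Shh among them, 9 had a row and 2 lay above the median of all genes per kb, Ntn1 (21.4 CPM per kb) and Foxa1 (7.57 CPM per kb), followed by Sulf1 (6.34 CPM per kb), whereas Corin had the lowest level (0.0510 CPM per kb) and Ferd3l had no row. Of 9 notochord markers, again with Shh among them, 8 had a row and 2 lay above it, Col2a1 (43.1 CPM per kb) and Sox9 (21.5 CPM per kb), both known from other tissues too, followed by Foxa2 (3.69 CPM per kb); T had the lowest level (0.366 CPM per kb) and Noto had no row. The endoderm list lay closer to the median of all genes, with a list median of 2.39 against 2.77 on the log2 scale per kb. All 10 endoderm markers had a row and 3 lay above the median, Epcam (19.1 CPM per kb), Apoa1 (11.6 CPM per kb) and Sox17 (9.07 CPM per kb), with Cdx2 the lowest (0.462 CPM per kb). Of 10 markers of mesoderm and mesenchyme, 1 lay above it, Foxc2 (8.26 CPM per kb), followed by Osr1 (4.82 CPM per kb) and Hand2 (4.31 CPM per kb), with Pax9 the lowest (0.271 CPM per kb). Which cells of the mixture carried the Hedgehog transcripts, or markers such as Foxa1 and Foxa2, was not tested. In bulk RNA, few cells with much of a transcript and many cells with little of it cannot be told apart.

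**Figure D4:**
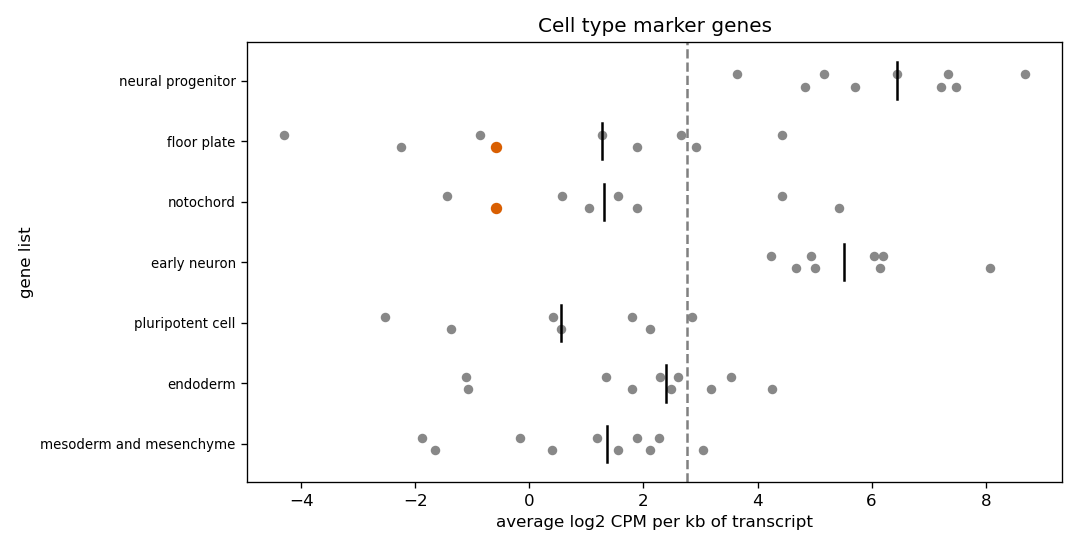
Average log2 CPM per kb of transcript (x axis) of the genes of 7 cell type marker lists (y axis), from both genotypes pooled; each point is 1 gene, the orange points are Shh, which is on the floor plate and the notochord list, black bars are list medians and the dashed line is the median of all genes. The neural progenitor and early neuron lists have medians of 6.45 and 5.52 and lie to the right of the dashed line, and the median of the floor plate list is 1.28.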

How the data were processed

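Directional libraries were made from polyA RNA of NPCs, 3 per genotype. In the deposited table, the values used are the authors' average log2 CPM over the libraries in their edgeR fit. Tools listed in the submitters' processing notes are Trim Galore, STAR and edgeR, with the builds NCBIM37 and mm9. The published methods give another build and annotation (GRCm39 with GENCODE M35) and quantification by Salmon, with removal of low genes and normalization by trimmed mean of M values. The other columns hold the authors' own comparison of the genotypes (fold changes, p-values and FDR) and were not used. No values per library were used, so no SD, test or depth can be given.

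Gene IDs were matched without version to GENCODE vM39 (GRCm39): 15066 of 15095 were found and 29 were not. The level per length was the average log2 CPM minus log2 of the canonical transcript length in kb; since the authors' gene models may be older, these lengths are approximate. The members and the 14 lists were chosen with earlier results of these data known. Named genes were the members, the 3 highest and the lowest of each list, pathway genes without a row and overlapping genes. Cdon, Sufu, Hhat, Olig2 and the Nkx genes other than Nkx2-2 were added after their values were seen. Identity between Gli proteins was not analysed here. Steps were tested on simulated data, with Python 3.11.15, numpy 2.4.6, pandas 2.3.3 and matplotlib 3.10.9.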

Additional observations from a re-analysis of the deposited data

How the results depend on the processing

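No paired analysis was possible because the table gives 1 value per gene over all libraries, and for the same reason no library could be left out. With the union of all exons as length, 7 of the 9 Hedgehog genes kept their place in the order, and Smo and Boc exchanged theirs (Smo then 0.815-fold Boc), while Gas1 lay 4.43-fold above Smo; with the longest protein-coding transcript, all 9 kept it. Without division by length, 5 kept it, while Gli1 and Ptch1, and Gli2 and Gli3, exchanged places. The number of members above the median was 7 under each alternative except among genes filtered at a log2 CPM of 0 or more, where it was 6. With that filter, 75 of 76 pathway genes remained. With 1 mismatch allowed outside its core, the GLI consensus was still found in 0 member promoters, against 3.29% of all promoters. Values of low genes such as Shh (average log2 CPM 0.92) rest on the fewest reads.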
